A study of Mus musculus with 6 samples.

Results

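Expression of 10 genes of the T-cell receptor gamma locus and of early lymphoid development was followed in hematopoietic stem cells (HSCs) of the mouse fetal liver, with and without Dpy30. The 10 genes are Tcrg-C1, Tcrg-C2, Tcrg-C4, Il7r, Dntt, Rag1, Rag2, Notch1, Gata3 and Tcf7, out of 38926 gene features counted in each library, and all 10 were found by symbol. Tcrg-C1 was chosen by its difference between the genotypes in these same libraries, so its values are a description and carry no test. The other 9 were taken by name, to see whether Tcrg-C1 moved alone or with other lymphoid genes.

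Poly(A)-selected RNA was sequenced from 6 samples of HSCs sorted by surface markers from E14.5 embryos, in midgestation. The 3 controls were Vav-Cre; Dpy30F/+ and the 3 knockouts Vav-Cre; Dpy30F/-, with 1 of each genotype from each of 3 litters. The Vav promoter drives Cre recombinase across blood cells, so both genotypes carried Cre and 1 floxed allele, and the controls had 1 intact Dpy30 allele rather than a pair. Dpy30 protein belongs to the SET1/MLL enzymes that methylate histone H3 on lysine 4. Which surface markers were used, and whether a sample was 1 embryo or a pool, is not given in the sources used here. In bulk RNA, fewer cells of a type and less RNA per cell cannot be told apart. No source says how the samples of a group differ beyond their litter, and p-values measure the spread between these samples.

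A gamma delta T cell carries a receptor whose gamma chain is assembled by joining a V to a J segment, and splicing then links the joined segment to the nearby constant gene. The joining is done by the Rag1 and Rag2 recombinase, and terminal transferase, made by Dntt, adds bases at the junctions. In lymphoid progenitors the interleukin 7 receptor, made by Il7r, opens the gamma locus to recombination, and Notch1 signalling turns on Tcf7 and Gata3, which set the T-cell fate. Constant genes can also be transcribed from the unrearranged locus, giving RNA that encodes no receptor.

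The files list 4 gamma constant genes, and their similarity bears on how reads are counted. The first 150 bases of the first constant exon of each gene, and the 60 bases of the 3 J segments listed, are shown from GENCODE M21 transcripts on GRCm38, 5′ to 3′ on the coding strand. Capitals mark the bases that differ from Tcrg-C1, or for the J segments from Trgj1.
Tcrg-C1 (chr13:19214103-19214252, plus strand): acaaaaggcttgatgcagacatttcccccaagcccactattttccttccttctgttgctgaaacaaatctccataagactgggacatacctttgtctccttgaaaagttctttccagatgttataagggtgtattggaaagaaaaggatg
Tcrg-C2 (chr13:19307402-19307551, minus strand): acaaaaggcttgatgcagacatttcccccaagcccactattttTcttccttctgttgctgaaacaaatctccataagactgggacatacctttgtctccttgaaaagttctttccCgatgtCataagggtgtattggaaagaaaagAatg
Tcrg-C3 (chr13:19260884-19261033, plus strand): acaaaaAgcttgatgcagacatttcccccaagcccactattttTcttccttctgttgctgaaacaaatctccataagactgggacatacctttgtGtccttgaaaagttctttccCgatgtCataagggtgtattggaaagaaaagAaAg
Tcrg-C4 (chr13:19344558-19344707, plus strand): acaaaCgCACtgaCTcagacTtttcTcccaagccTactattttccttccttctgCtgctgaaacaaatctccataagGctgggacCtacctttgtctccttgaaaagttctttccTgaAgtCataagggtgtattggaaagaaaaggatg
Trgj1 (chr13:19210343-19210402, plus strand): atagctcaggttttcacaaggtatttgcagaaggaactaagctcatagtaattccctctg
Trgj2 (chr13:19311245-19311304, minus strand): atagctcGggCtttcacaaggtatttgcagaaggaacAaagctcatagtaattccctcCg
Trgj3 (chr13:19257117-19257176, plus strand): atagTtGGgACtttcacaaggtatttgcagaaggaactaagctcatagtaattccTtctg
In the 150 bases shown, Tcrg-C2 differs from Tcrg-C1 at 4 positions, Tcrg-C3 at 7 and Tcrg-C4 at 15. Across the whole first exon of 330 bases the identity to Tcrg-C1 is 97.3% for Tcrg-C2, 96.1% for Tcrg-C3 and 82.1% for Tcrg-C4. Of the 875 stretches of 50 bases in the Tcrg-C1 transcript, 299 (34.2%) also occur in Tcrg-C2 or Tcrg-C3, and 65.8% are its own. The deposited lists tally reads with more than 1 alignment apart from the genes, so the counts of these genes leave out reads from the shared stretches, and the read length is not given in the sources used here. Tcrg-C4 shares none of its 936 stretches with another gene.

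Tcrg-C1 RNA was nearly absent from the controls and present in every knockout. Tcrg-C1 (ENSMUSG00000076749.2) lies on the plus strand at chr13:19214103-19217024 on GRCm38. Its counts were 0, 2 and 0 in the controls of litters 1, 2 and 3, and 736, 235 and 1752 in the knockouts of the same litters. Scaled to a library total of 1000000 counts (CPM, with TMM library factors), the knockouts held 18.5, 6.48 and 50.04. The groups did not overlap, and the knockouts themselves spread widely, with knockout 2 lowest and knockout 3 highest.

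Tcrg-C1 averaged 0.0178 ± 0.0309 CPM over the controls, against 25.01 ± 22.5 CPM over the knockouts (SD, n = 3 each). Summed over each genotype there were 2 and 2723 counts, a ratio of 1354 with an exact 95% interval of 374 to 11187, which covers counting error alone. It covers neither the spread between the knockouts nor the choice of Tcrg-C1 by this difference, and is not a test. The fitted log2 fold change from edgeR was 10.18 (SE 1.40), and the changes in log2 CPM within litters 1, 2 and 3 were 8.42, 5.92 and 9.85. Without control 2, which held the 2 control counts, the fitted value was 12.84 and then depends on the prior count. Among 13646 genes tested, 1 (0.00733%), Tcrg-C1 itself, had at most 2 counts in each control and at least 200 in each knockout. With at least 100 in each knockout there were 5 (0.0366%), the others being Ano3, Cd80, Dnah12 and Mmp13. These cut-offs were drawn around Tcrg-C1, so the counts describe its pattern and test nothing.

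**Figure D1:**
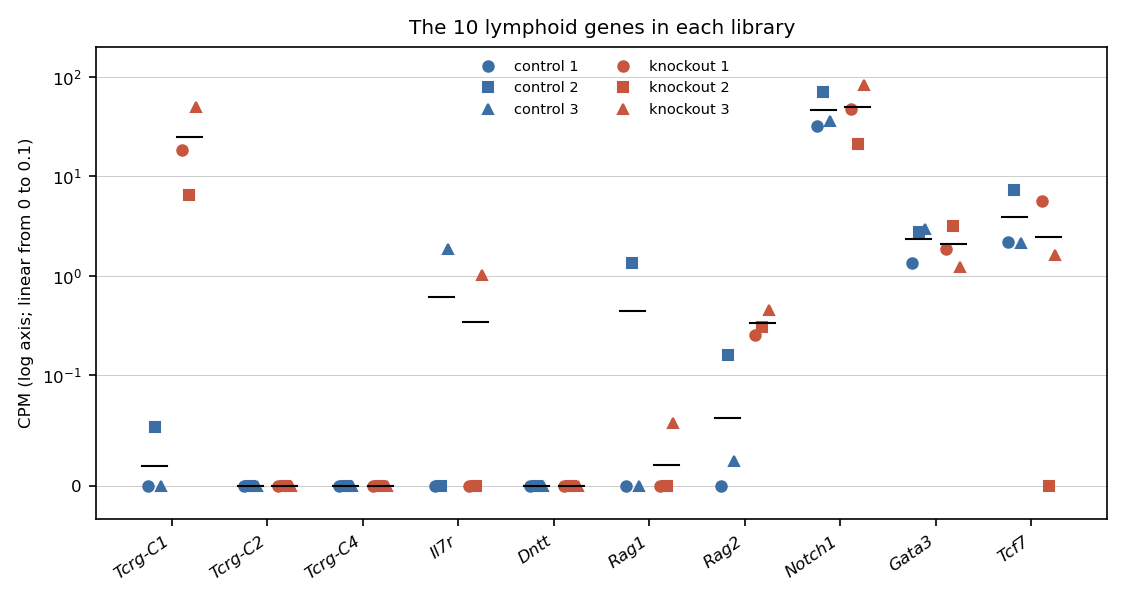
CPM (log axis, linear from 0 to 0.1) of the 10 genes in each library, with controls in blue, knockouts in red, shapes for litters and black bars for group means. Tcrg-C1 sits between 6.48 and 50.04 CPM in the knockouts and at or near 0 in the controls, while Tcrg-C2, Tcrg-C4 and Dntt lie at 0 in all 6 libraries and Notch1, Gata3 and Tcf7 overlap between genotypes.

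The other constant genes of the gamma locus did not accompany Tcrg-C1. Tcrg-C2 (ENSMUSG00000076752.2, chr13:19304649-19307551, minus strand) and Tcrg-C4 (ENSMUSG00000076757.9, chr13:19344558-19352756, plus strand) had 0 counts in all 6 libraries. A count of 0 allows up to 3 counts, which is 0.068 to 0.104 CPM in these libraries. Tcrg-C3, 46.78 kb downstream of the Tcrg-C1 start, had 33 counts in knockout 3 and 0 in the other 5 libraries. In knockout 3 it therefore stood far below the 1752 counts of Tcrg-C1.

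The J segment paired with Tcrg-C1 showed the same division between genotypes at a low level. Trgj1, about 3.76 kb upstream of Tcrg-C1, had 0 counts in every control and 7, 1 and 13 in knockouts 1 to 3. Against a floor of 3 counts over the control group, its summed counts were at least 6.96-fold higher in the knockouts. Its order among the knockouts was that of Tcrg-C1, over 3 libraries. How reads reaching past the 60 bases of a J segment were counted is not given in the sources used here. Too few counts were present for Trgj1 to be tested.

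Among the 6 gamma V segments listed, Tcrg-V7 alone had counts, 20 in knockout 1 and 0 elsewhere. Knockouts 2 and 3, with 235 and 1752 counts of Tcrg-C1, thus had no count on a listed V segment. Gene counts do not record whether a V segment is spliced to Tcrg-C1, so rearranged and unrearranged transcripts were not separated.

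**Figure D2:**
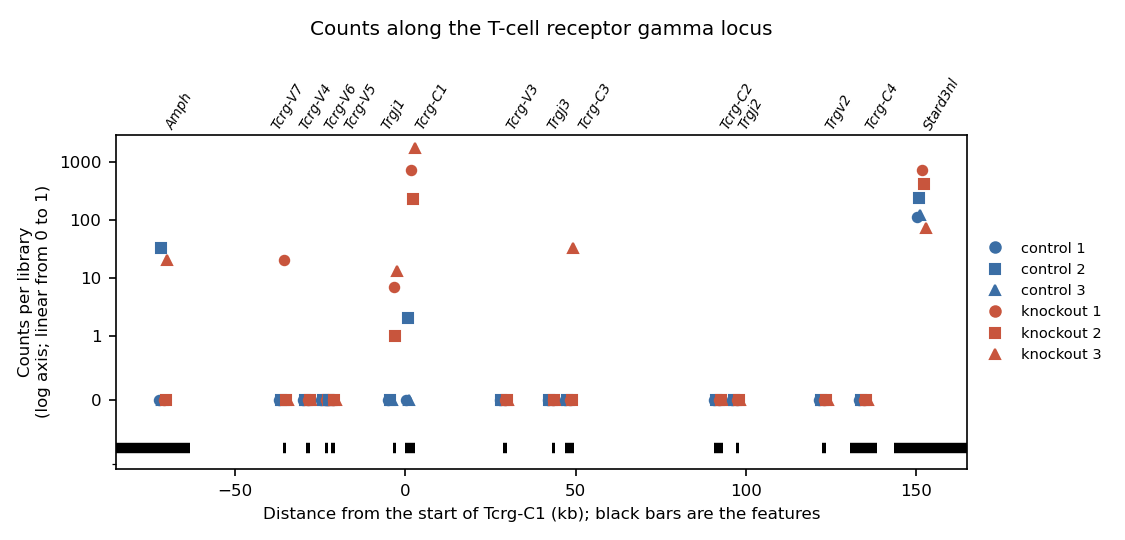
Counts per library (log axis, linear from 0 to 1) along the gamma locus against distance from the start of Tcrg-C1 in kb, with points of 1 feature spread sideways and black bars for the features. Knockout counts stand at Tcrg-C1 (235 to 1752) and Trgj1 (1 to 13), and most V, J and constant features lie at 0.

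Genes on either side of the locus did not follow Tcrg-C1. Amph, 63.2 kb before it, had 33 counts in control 2, 20 in knockout 3 and 0 in the other libraries. Stard3nl, 140.7 kb after it, had 113, 243 and 124 counts in controls and 719, 415 and 72 in knockouts, so knockout 3, highest for Tcrg-C1, was lowest for Stard3nl. Its log2 fold change was 1.26 (SE 0.87), which did not pass edgeR's quasi-likelihood test (adjusted p = 0.863).

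Across all T-cell receptor loci, 232 features were counted, of which 210 were at 0 in every library. The alpha locus had 161 of 169 features at 0, the beta locus 31 of 41, the gamma locus 9 of 13 and the delta locus all 9. Thus no feature named for the delta locus alone had a count. Trav13-4-dv7, a V segment shared by alpha and delta chains, was tallied with alpha. It had 4 counts in control 2, 5 in knockout 1 and 0 in the other libraries. The alpha constant gene Trac was at 0 in all 6 libraries. Of the 13 features with at least 10 counts in all, 8 had over 90% of them in 1 library.

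The largest totals after Tcrg-C1 were on beta V segments. Trbv1 had 23, 8 and 0 counts in controls and 27, 1629 and 0 in knockouts, and Trbv16 had 310 in knockout 2 and 0 elsewhere. Trbv13-2 had 97, 106 and 56 in controls and 8, 3 and 908 in knockouts. Neither Trbv1 (log2 fold change 5.51) nor Trbv13-2 (1.81) was called by edgeR at an adjusted p under 0.05, and their genotypes overlapped. Trbv13-2 had counts in all 6 libraries. Smaller totals were Traj12 with 31 in control 1, Trbv2 with 21 in control 2, Trbv31 with 24 in knockout 2, and Trbc2 with 49 in control 3 and 4 in knockout 1. Trbv5 had 8 in control 3 and 6 in knockout 1, and Trbv12-2 had 6 in control 1, 4 in knockout 2 and 1 in knockout 3. Apart from Tcrg-C1 and Trgj1, none of the features with at least 10 counts was higher in every knockout than in every control.

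The recombination genes gave no count or few. Dntt (ENSMUSG00000025014.13, chr19:41029275-41059525, plus strand) had 0 counts in all 6 libraries. Rag1 (ENSMUSG00000061311.6, chr2:101638282-101649501, minus strand) had 50 counts in control 2, 2 in knockout 3 and 0 in the other 4. Rag1 therefore stood in libraries of both genotypes and was highest in a control, and it was too sparse to be tested.

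Rag2 was low everywhere but higher in every knockout. Rag2 (ENSMUSG00000032864.4, chr2:101624718-101632529, plus strand) had 0, 6 and 1 counts in controls and 10, 11 and 16 in knockouts. Rag2 averaged 0.0611 ± 0.0868 CPM over the controls, against 0.337 ± 0.107 CPM over the knockouts (SD, n = 3 each), and the groups did not overlap. The log2 fold change of 2.39 (SE 1.44) did not pass edgeR's quasi-likelihood test (adjusted p = 0.834).

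Rag2 was the only one of the 9 genes other than Tcrg-C1 without overlap between genotypes, beside 6.39% of all tested genes higher in every knockout, 7.74% lower and 14.1% either way. It entered the test through the knockouts alone, since 0 controls and 3 knockouts were over the filter's 0.277 CPM before scaling, so its place among tested genes required a difference. Its exons overlap B230118H07Rik on the opposite strand, and 161 of the 3375 stretches of 50 bases in Rag2 also occur in that gene. Whether the counting used strand is not given in the sources used here, so reads within the overlap cannot be told apart, while 95.2% of the stretches in Rag2 are its own. B230118H07Rik had 250, 262 and 210 counts in controls and 423, 597 and 80 in knockouts, an order that differs from that of Rag2.

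Il7r RNA appeared in 1 litter. Il7r (ENSMUSG00000003882.5, chr15:9505788-9530176, minus strand) had 82 counts in control 3, 36 in knockout 3 and 0 in the other 4 libraries. That is 1.86 CPM in the control and 1.03 CPM in the knockout of litter 3. Knockouts 1 and 2, with 736 and 235 counts of Tcrg-C1, had no count of Il7r, and the gene was too sparse to be tested.

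The T-lineage regulators Notch1, Gata3 and Tcf7 were present in most libraries of both genotypes and overlapped between them. Notch1 (ENSMUSG00000026923.15, chr2:26457903-26516663, minus strand), the receptor that starts T-cell specification, had 31.8, 69.9 and 36.4 CPM in controls and 47.4, 21.1 and 82.7 CPM in knockouts. The fitted difference on the log2 scale was 0.13 (SE 0.52; edgeR adjusted p = 0.983), and within litters 1, 2 and 3 the changes in log2 CPM were 0.57, -1.72 and 1.18. The sign of the fitted value turned without knockout 3 (-0.41), control 1 (-0.08) or control 3 (-0.01), and with limma-voom (-0.01) or upper-quartile scaling (-0.02). Its exons overlap 0610009E02Rik and Gm13568 on the opposite strand, so reads of these genes may be mixed or left out.

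Gata3 (ENSMUSG00000015619.10, chr2:9857078-9890034, minus strand), a zinc finger factor of T cells and innate lymphoid cells, had 1.35, 2.78 and 2.95 CPM in controls and 1.86, 3.14 and 1.23 CPM in knockouts. On the log2 scale its fitted difference was -0.18 (SE 0.995; edgeR adjusted p = 0.99). The differences in log2 CPM within litters 1, 2 and 3 were 0.45, 0.17 and -1.23, and the fitted sign turned without knockout 3 (0.09) or control 3 (0.01).

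Tcf7 (ENSMUSG00000000782.15, chr11:52252371-52283014, minus strand) encodes TCF-1, a partner of beta-catenin that acts early in the T lineage. It had 2.21, 7.25 and 2.15 CPM in controls and 5.69, 0.0 and 1.63 CPM in knockouts. Its fitted log2 difference was -0.67 (SE 1.65; edgeR adjusted p = 0.969), and the sign turned without control 2 (0.17). Knockout 2 had 0 counts of Tcf7 where control 2 had 271, the largest gap within a litter for this gene.

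In all, 5 of the 10 genes passed the filter on low counts: Tcrg-C1, Rag2, Notch1, Gata3 and Tcf7. Of the 5 that did not, Tcrg-C2, Tcrg-C4 and Dntt had no count, and Rag1 and Il7r had counts in 2 libraries each. Of the 4 tested genes other than Tcrg-C1, 0 were called by edgeR at an adjusted p under 0.05, 0 had an unadjusted p under 0.05 and 0 were called by DESeq2. Over all tested genes edgeR called 0% in either direction, with or without a litter term, 6.51% had an unadjusted p under 0.05 (4.26% higher in knockouts and 2.24% lower), and DESeq2 called 1.01% (0.762% higher and 0.249% lower). An adjusted p over the threshold does not show that these genes were equal, and the SE of their log2 fold changes ran from 0.52 to 1.65.

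Levels can be compared between genes as CPM per kb of exon. In controls the means ran in the order Notch1 (3.24 CPM per kb), Tcf7 (1.47), Gata3 (0.593), Il7r (0.133), Rag1 (0.0675), Tcrg-C1 (0.0193) and Rag2 (0.0178). Ranges of Notch1 (2.24 to 4.91) and Tcf7 (0.821 to 2.76) overlapped, as did those of each pair of neighbours from Gata3 down, whereas Gata3 (0.339 to 0.741) lay below Tcf7. In knockouts Tcrg-C1 came first at 27.1 CPM per kb, with a lowest value of 7.01 above the highest of Notch1, 5.81. Notch1 (3.54), Tcf7 (0.929), Gata3 (0.522), Rag2 (0.0985), Il7r (0.0735) and Rag1 (0.00288) followed. Of these neighbours, Gata3 (0.309 to 0.79) and Rag2 (0.0735 to 0.134) did not overlap, and the other pairs did.

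Besides these 10 genes, 94 genes in 6 lists of lymphoid pathways were read from the same fit. Of these, 13 had no count in any library, 12 had counts but were not tested, and 69 were tested. None of the 69 was called in either direction by edgeR or DESeq2 without a litter term, and 3 were higher (4.35%) and 2 lower (2.9%) at an unadjusted p under 0.05 in edgeR, beside 4.26% and 2.24% of all genes. Their median log2 fold change was 0.14, beside 0.01 for all genes tested. Values did not overlap between genotypes for 10 of the 69, 4 higher and 6 lower in the knockouts, which is near the 14.1% of all tested genes (6.39% higher and 7.74% lower).

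Of the 19 genes of the T-cell receptor signalling list, 10 had 0 counts in all 6 libraries: the CD3 chains Cd3d, Cd3e and Cd3g, the pre-receptor chain Ptcra, the kinase Zap70, and Cd2, Cd6, Cd8a, Cd8b1 and Trat1. Its 5 tested genes had a median log2 fold change of -1.57, with 2 positive and 3 negative, and the median ran from -2.36 to -0.23 over the other settings. Lck, the kinase that starts receptor signalling, had 50, 26 and 77 counts in controls and 5, 0 and 35 in knockouts (log2 fold change -1.88, SE 1.67, edgeR adjusted p = 0.892). Cd4 had 91, 56 and 9 counts in controls and 59, 174 and 587 in knockouts (2.25, SE 1.27, adjusted p = 0.814), with overlap between genotypes. Thy1 had 17, 266 and 73 in controls and 1, 31 and 0 in knockouts (-3.40, SE 1.97, adjusted p = 0.824). Cd28, a costimulatory receptor of T cells named after its values were seen, had 0 counts in every control and 85, 1 and 10 in knockouts. It was thus higher in every knockout, as Tcrg-C1 was, with 1 count in knockout 2, and was too sparse to be tested. Lcp2, an adaptor also used in myeloid cells and platelets, averaged 44.4 ± 7.87 CPM over the controls, against 66.5 ± 12.96 CPM over the knockouts (SD, n = 3 each), and was higher in every knockout (edgeR adjusted p = 0.775).

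The partners of Rag and terminal transferase in joining DNA ends, which also serve general DNA repair, were all tested. Their 11 genes had a median log2 fold change of -0.14 (-0.26 to 0.09 over the other settings), 4 positive and 7 negative. Some were sparse in single libraries, with Nhej1 at 0 in control 2 and Lig4 at 1 count and Polm at 2 in knockout 3. Hmgb2, a bending protein that helps the recombinase, was lower in every knockout, at 38.6 ± 3.44 CPM beside 52.9 ± 6.69 CPM in controls (SD, n = 3 each; edgeR adjusted p = 0.82). Hmgb1 (log2 fold change -0.58), the ligase Lig4 (-1.06) and the polymerase Poll (1.48) overlapped between genotypes.

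The interleukin 7 receptor list had 11 of 12 genes tested, with a median of 0.36 and 9 positive values, beside 50.8% positive among all genes tested. The median ran from 0.13 without knockout 3 to 0.59 without knockout 1. The kinase Ptk2b was higher in every knockout, at 74.3 ± 33.8 CPM beside 29.1 ± 18.7 CPM (SD, n = 3 each; log2 fold change 1.35, SE 0.54, edgeR adjusted p = 0.753). Jak3, which signals from the shared cytokine receptor chain, had 34.6 ± 12.9 CPM in knockouts and 15.4 ± 13.3 CPM in controls (SD, n = 3 each; edgeR adjusted p = 0.824). Pim1 gave a log2 fold change of 0.50. Socs1 gave 2.24, from 396 counts in knockout 3 and 10 or fewer in the other knockouts.

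For the Notch pathway, 21 of 23 genes were tested, with a median of 0.12, 12 positive and 9 negative. The median ran from -0.23 to 0.33 over the other settings and was -0.19 without knockout 3. Notch2, another Notch receptor, had 76.9, 114 and 114 CPM in controls and 68.9, 60.1 and 63.0 CPM in knockouts, lower in every knockout (log2 fold change -0.67, SE 0.25, edgeR adjusted p = 0.729). Maml1 and Maml3, coactivators of Notch transcription, gave 0.47 and 1.46, with adjusted p of 0.848 and 0.74 in edgeR. Hey1, a Notch target, had 0, 38 and 0 counts in controls and 204, 22 and 191 in knockouts (3.45, SE 2.11, adjusted p = 0.834 in edgeR). Hey1 and Dtx4 were the 2 list genes called by DESeq2 with the litter as a block (adjusted p = 0.0142 and 0.0414). In that setting 1.96% of all tested genes were called, 1.11% higher and 0.857% lower in knockouts. The log2 fold changes there were 8.17 for Hey1 and 2.98 for Dtx4. Within litters 1, 2 and 3 the changes in log2 CPM of Hey1 were 6.58, -0.70 and 6.67, so litter 2 ran the other way.

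The T-lineage factors had 9 of 13 genes tested, a median of 0.67 and 8 positive values, with 0 called by edgeR, beside 50.8% positive among all genes tested. The list leaves out the members Gata3 and Tcf7, whose fitted values were both negative (-0.18 and -0.67), so the tally of signs depends on how the list was drawn. The median ran from 0.22 without knockout 3 to 0.93 without control 2. Tox gave a log2 fold change of 1.36 (SE 0.68, edgeR adjusted p = 0.795), Ets1 0.56 and Runx3 -0.82. Id2, an inhibitor of E proteins used by innate lymphoid and myeloid cells, was higher in every knockout (7.85 ± 1.62 CPM beside 4.08 ± 1.24 CPM; SD, n = 3 each; edgeR adjusted p = 0.866). Bcl11b, which fixes T-cell identity, had 9 counts in controls and 1 in knockouts. Lef1 had 33 and 13, and neither gene was tested.

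Genes of lymphoid-primed progenitors had a median of 0.07, with 7 positive and 5 negative among 12 tested. The sign of the median turned under several settings, among them the edgeR litter block (-0.32), limma-voom (-0.36) and leaving out knockout 2 (-0.11). Tcf3, the E protein that drives early lymphoid genes, was lower in every knockout, at 46.7 ± 17.6 CPM beside 92.1 ± 8.40 CPM (SD, n = 3 each; log2 fold change -0.98, SE 0.32, edgeR adjusted p = 0.709). Ikzf1, the lymphoid zinc finger factor Ikaros, was also lower in every knockout, at 274.6 ± 53.1 CPM beside 358.5 ± 25.02 CPM (SD, n = 3 each; edgeR adjusted p = 0.797). Bcl11a gave -0.34 and overlapped. Dtx4 had 17, 9 and 128 counts in controls and 67, 128 and 1091 in knockouts (3.28, SE 1.41, edgeR adjusted p = 0.766).

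**Figure D3:**
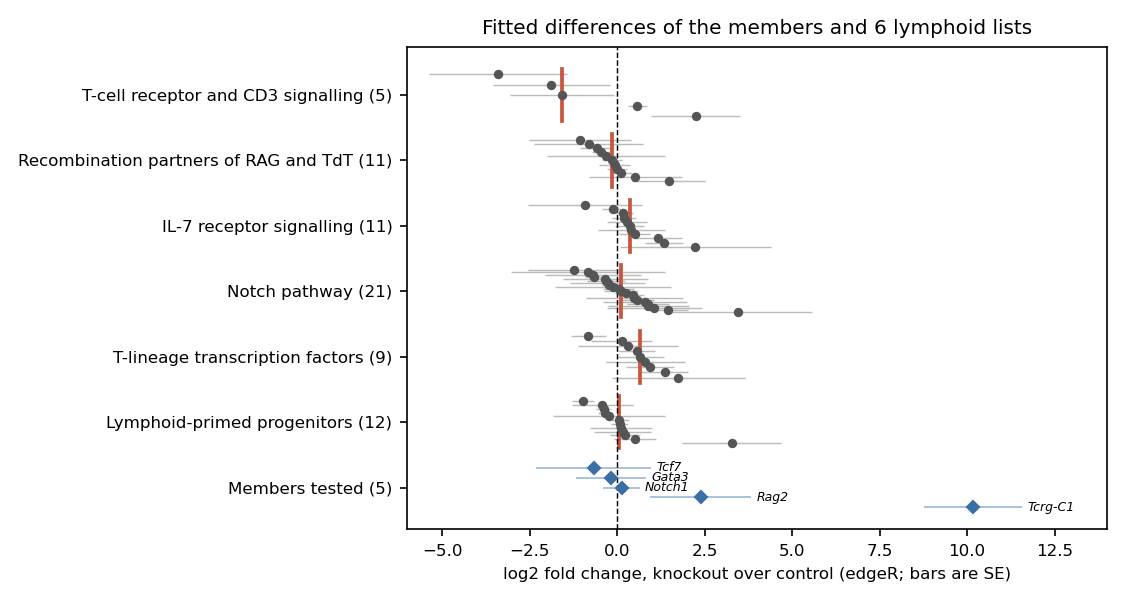
Fitted log2 fold changes (knockout over control, edgeR, bars are SE) of the tested genes of 6 lymphoid lists in grey, with list medians as red lines, and of the tested members in blue; numbers in brackets are genes tested. Tcrg-C1 stands at 10.18 and the list medians lie between -1.57 and 0.67.

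With predicted genes and RIKEN clones left out, the genes most like Tcrg-C1 over the 6 libraries were Dnah12, Mfsd1, Myo1f, Cd86 and Xpnpep3. Their Pearson r of log2 CPM ran from 0.98 to 0.993. In all, 195 of 13645 other tested genes (1.43%) reached r of 0.9. The 6 points share the split into genotypes, so the likeness is given without a test. Cd86, a costimulatory ligand of antigen-presenting cells, had 52, 139 and 142 counts in controls and 845, 590 and 956 in knockouts. Myo1f, a myosin of myeloid and other leukocytes, had 401, 661 and 633 in controls and 1771, 1128 and 1520 in knockouts. Dnah12, an axonemal dynein, had 0, 1 and 0 in controls and 129, 120 and 276 in knockouts. Of the other members, Rag2 had r of 0.89 with Tcrg-C1, Notch1 0.22, Tcf7 -0.28 and Gata3 -0.31. Rag2 and Tcrg-C1 each had 0 controls and 3 knockouts over the filter's 0.277 CPM. The filter thus favored a high r between them, and no conclusion is drawn from it.

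Markers of other cell types were summed in each library. The T-cell list of 9 genes ran from 2.49 to 4.90 CPM in controls and from 1.74 to 17.8 CPM in knockouts. Of its genes, Cd3d, Cd3e, Cd3g, Ptcra and Cd8a were at 0 throughout, and most of the knockout 3 sum came from Cd4. Summed over controls and over knockouts, Lck had 153 and 40 counts, Cd247 29 and 12, and Bcl11b 9 and 1. The natural killer and innate lymphoid list ran from 0 to 3.02 CPM in controls and from 3.32 to 16.1 CPM in knockouts, with 5 of 11 genes, Eomes, Tbx21, Prf1, Gzma and Il2rb, at 0. Most of that sum was Nkg7, with 0, 0 and 8 counts in controls and 43, 314 and 494 in knockouts, and Klrb1c, with 125 in control 3, 86 and 255 in knockouts 1 and 2 and 0 in knockout 3. DESeq2 without a litter term called Nkg7 higher (adjusted p = 0.00111), beside 0.762% of all tested genes. In edgeR it was not called (adjusted p = 0.642). No control held more than 0.181 CPM of Nkg7, so it entered the test through the knockouts. The mast cell and basophil list ran from 5.01 to 17.1 CPM in controls and from 25.9 to 45.7 CPM in knockouts, with 5 of 10 genes at 0. In knockouts it was mostly Il1rl1 and Cpa3, whereas Hdc had 0, 221 and 83 counts in controls and 44, 125 and 29 in knockouts, and Mcpt8 and Ms4a2 also overlapped. The sums of both lists were higher in every knockout, as Tcrg-C1 was, though not each gene of them, and knockout 2, lowest for Tcrg-C1, was not lowest for either.

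The B-cell list ran from 1.69 to 10.5 CPM in controls and from 1.94 to 5.02 CPM in knockouts, with Pax5 and Ms4a1 of its 11 genes at 0. This list includes Rag1 and Rag2. Its highest library was control 2, which held 119 counts of Igll1 and 51 of Ebf1 beside the 50 of Rag1. The macrophage and monocyte list ran from 268.5 to 549 CPM in controls and from 339 to 1413 CPM in knockouts, and none of its 11 genes was at 0. Among knockouts its order, 2 then 1 then 3, was that of Tcrg-C1. Control 2 (549 CPM, 2 counts of Tcrg-C1) exceeded knockout 2 (339 CPM, 235 counts). Mrc1 made up most of the control 2 sum, with 359 CPM there and 26.4 CPM in knockout 2. Csf1r, Lyz2, C1qb, Cd68 and Ccr2 were each higher in every knockout, beside 6.39% of all tested genes. The other genes of the list overlapped between genotypes. DESeq2 without a litter term called Csf1r, Lyz2 and C1qb higher (adjusted p = 0.00759, 0.00772 and 0.00214), beside 0.762% of all tested genes. DESeq2 did not call Cd68 (adjusted p = 0.0655) or Ccr2 (0.879), and edgeR called none of the list. The part of these cell types in the Tcrg-C1 counts was not tested.

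**Figure D4:**
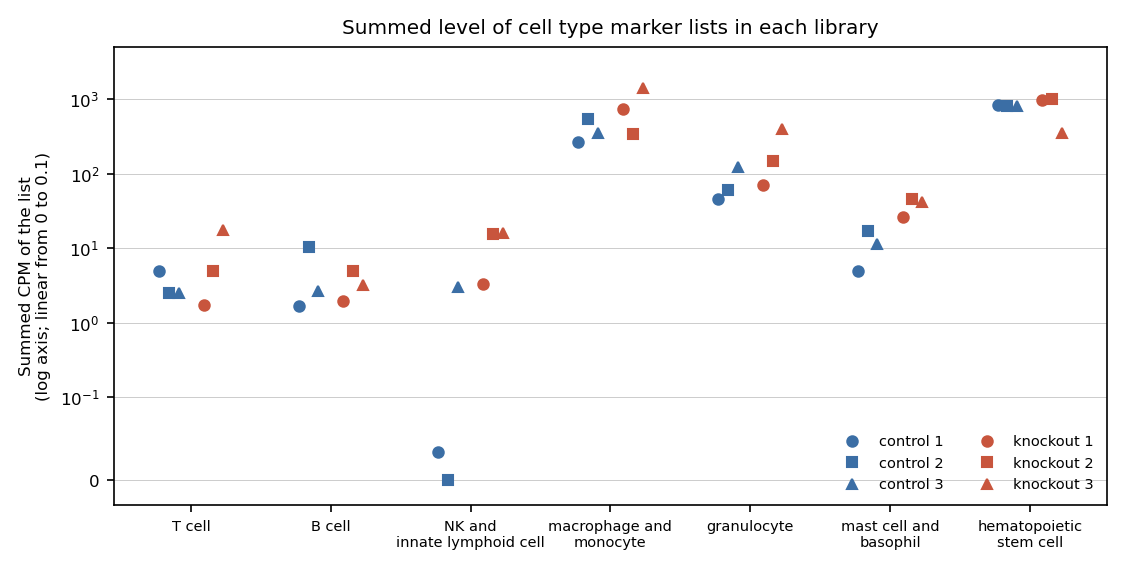
Summed CPM (log axis, linear from 0 to 0.1) of 7 cell type marker lists in each library, controls in blue and knockouts in red with shapes for litters. The natural killer and mast cell sums are higher in every knockout, the T-cell and B-cell lists overlap, and the stem cell list is lowest in knockout 3 (354 CPM).

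In units of 1000000, libraries held 31.9 to 43.4 gene counts, of which the mitochondrial ribosomal RNAs took 45.2% to 61.7%. Stem cell markers were present in every library, at 810 to 823 CPM in controls and 983, 996 and 354 CPM in knockouts 1 to 3. Knockout 3 stood apart, with the lowest correlations to the other libraries (0.72 to 0.758) and 1390 of the tested genes (10.2%) at 0, and knockout 2 had 982 (7.2%) at 0, beside 140 to 393 in controls. Of 14425 genes with at least 50 counts in a library, 3323 (23.0%) were at 0 in at least 1 other and 257 (1.78%) were at 0 in the other 5. Without knockout 3 the fitted log2 fold change of Tcrg-C1 was 9.20. Dpy30 counts were 712, 904 and 1395 in controls and 315, 216 and 478 in knockouts, lower in every knockout (log2 fold change -1.55, SE 0.46, edgeR adjusted p = 0.672).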

How the data were processed

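For 6 libraries the authors deposited raw counts of reads by gene symbol, not normalized. The submitters' processing notes name CASAVA 1.8.4, TopHat2, Picard 1.126, HTSeq 0.6.0, DESeq 3.0, bedtools 2.17.0 and the build mm10, with no role given. The 5 tallies of unassigned reads ending each list, 41% to 51% of all, were left out. Molecular tags are not described, so intervals and floors cover counting error only. The members and the lists were chosen with earlier results of these data known.

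Counts were tested with edgeR's quasi-likelihood F test (edgeR 4.0.16, R 4.3.3) across 13646 genes kept by filterByExpr, with TMM factors, no litter term and Benjamini-Hochberg adjustment at 0.05. Log2 fold changes are knockout over control, the SE is the absolute change divided by the square root of F, and a prior count of 2 enters log2 CPM. The fits were also run on simulated counts, drawn with the same spread for every gene, and no result here rests on that run. Litter numbers in the labels pair the samples, and deviations from the group means correlated by -0.0224, -0.0752 and 0.00336 in litters 1 to 3. Coordinates, exon lengths and sequences come from GENCODE M21 (GRCm38), and Adgre1 was read under its older symbol Emr1.

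Named by rule were all members, T-cell receptor features with at least 10 counts, the 4 genes of smallest p per list, any list gene called, the 5 genes most like Tcrg-C1 (predicted genes and RIKEN clones left out), the flanking genes and Dpy30. Other genes were named after their values were seen. The 16 alternatives were a litter block in edgeR, DESeq2 1.42.0 with and without it, limma-voom (limma 3.58.1), 4 other scalings, 2 other filters and leaving out each of 6 libraries.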

Additional observations from a re-analysis of the deposited data

How the results depend on the processing

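With the litter as a replicate block, edgeR called 0 genes, and the log2 fold changes were 9.84 for Tcrg-C1, 3.26 for Rag2, 0.06 for Notch1, -0.20 for Gata3 and -1.22 for Tcf7. The block changed no call of a member in edgeR. Over all genes, DESeq2 called 138, DESeq2 with the replicate block 268 and edgeR without a filter 1, and 2 list genes (Hey1 and Dtx4) were called by DESeq2 with the block alone. The cause was not tested. Leaving out each library gave 0 calls in every case, and 9.20 to 12.84 for Tcrg-C1, the highest without control 2. Members called, Tcrg-C1 not counted, stayed at 0 in all 16 alternatives. The sign of Notch1 turned with limma-voom (-0.01) and upper-quartile scaling (-0.02), and leaving out libraries gave -0.41 to 0.56 for Notch1, -0.61 to 0.09 for Gata3 and -2.25 to 0.17 for Tcf7. Adjusted p ran from 0.592 to 1.0 for Rag2, which 2 settings did not test, and from 0.701 to 1.0 for Notch1, Gata3 and Tcf7. The median of all genes moved from 0.01 by -0.14 with the edgeR block, -0.12 with the DESeq2 block, -0.16 with limma-voom, -0.12 with upper-quartile scaling and 0.21 with library size alone. Counts of 0 in every library, as for Tcrg-C2, Tcrg-C4 and Dntt, allow no comparison at this depth.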

Other observations

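Cd160, a receptor of natural killer cells and some T cells including gamma delta cells, was chosen after its values were seen because it ran opposite to Tcrg-C1. Its counts were 67, 238 and 200 in the controls of litters 1, 2 and 3 and 0 in every knockout. Against a floor of 3 counts over the knockout group, its summed counts were at least 169-fold lower in the knockouts. Because Cd160 was chosen by its difference in these same libraries, its values are a description and carry no test.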
